A study of Mus musculus with 6 samples.

Results

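The genes described here encode the cytosolic ribosomal proteins of the mouse. They are the 81 rows, of 28914 in the deposited table, whose Ensembl identifier belongs in the GENCODE M21 annotation of GRCm38 to a protein-coding gene named by the Rpl, Rps or Rplp pattern followed by a number. The pattern takes in 50 genes of the large subunit and 31 of the small subunit, spread over 19 chromosomes, and it includes the paralogues Rpl3l, Rpl7l1, Rpl22l1, Rpl39l and Rps27l. One more annotated gene of that pattern, Rpl10l, was not analysed here. Components that belong to the ribosome under other names, such as Rpsa, Fau and Rack1, are given separately.

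The RNA came from splenic CD4 T cells, sorted from NOD mice aged 12 weeks and not stimulated further. NOD is a strain that develops autoimmune diabetes, and Blimp-1, encoded by Prdm1, is a transcriptional repressor of lymphocytes. The 6 libraries form 3 groups of 2, namely control mice (WT), mice labelled Blimp1 knockout or CKO, and mice labelled as overexpressing Blimp-1 (BTg). The sources used here name neither the promoter of the transgene nor the Cre line nor the deleted exons. They also do not tell whether a group's 2 libraries are 2 mice, and the spread behind the p-values may therefore be technical. Each library carries the number 1 or 2 in its label. Both BTg titles end in the same number, so the number of a BTg library was taken from the bracketed column name within the title.

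A ribosome is built from RNA and many proteins, most of which are needed in equal amounts, and the mRNAs of these proteins are among the most abundant in a lymphocyte. Most of them start with a short run of pyrimidines, the terminal oligopyrimidine (TOP) tract, through which growth signals acting by way of mTOR and Larp1 adjust their translation and stability. T cells raise ribosome production when they leave rest and begin to divide.

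The start sites are shown first because the TOP tract is the sequence feature that these genes are known to share. In the RefSeq promoter table, built on GRCm38.p6, 61 of the 81 genes matched by symbol. Each window below holds 15 bases before the RefSeq start and 15 bases from the start onward, written 5′ to 3′ on the gene's strand. Capitals mark the longest run of C and T, of at least 5 bases, that ends no more than 5 bases before the start. The genes were chosen because the results turn on them (Rps27, Rps27l, Rpl36a, Rps10, Rpl28) or as an example of a long run (Rps18).
Rps27, chr3:90213634-90213663, minus strand: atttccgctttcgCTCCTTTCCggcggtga
Rps27l, chr9:66946071-66946100, plus strand: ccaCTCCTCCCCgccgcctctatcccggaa
Rpl36a, chrX:134585639-134585668, plus strand: gtgcacccaggcaccgcctataaaCTTCCg
Rps10, chr17:27635230-27635259, minus strand: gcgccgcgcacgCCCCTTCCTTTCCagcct
Rpl28, chr7:4792950-4792979, plus strand: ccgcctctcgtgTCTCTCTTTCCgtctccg
Rps18, chr17:33955651-33955680, minus strand: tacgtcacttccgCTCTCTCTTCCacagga
The windows of Rps27, Rps10, Rpl28 and Rps18 carry the run across the RefSeq start. In Rps27l the run ends before the start, and in Rpl36a only 5 bases in a row are pyrimidines, late in the window.

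A run of at least 8 bases that are each C or T, on the sense strand within 40 bases of the start, was present in 48 of the 61 matched genes (78.7%) and in 32.6% of all 27025 genes of that table. A C at the start followed by 4 pyrimidines was present in 13 of the 61 (21.3%), against 3.01% of all genes. The heptamer CCGGAAG, the core recognised by many factors of the ETS family, was present on either strand of the window from 250 bases before to 50 bases after the start in 25 of the 61 (41.0%), against 9.93% of all genes. It can overlap a pyrimidine run, since its reverse complement CTTCCGG begins with pyrimidines. It is shown in capitals for Rpl26, one of the genes with the largest difference between library numbers, and for Rps27l.
Rpl26, chr11:68901559-68901588, plus strand: aacttacagaaCCGGAAGtcgcgtgtagtt
Rps27l, chr9:66946084-66946113, plus strand: ccgcctctatcCCGGAAGttgctgaggggc
These matches describe the letters in the windows and were not tested as binding sites.

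The 6 libraries held between 14958458 and 17799091 reads on genes, recovered from the FPKM values (a length- and depth-scaled read density). Prdm1 was listed at 0.458 and 0.628 FPKM in the WT libraries, 0.849 and 0.669 in CKO and 19.6 and 30.1 in BTg, so that both BTg libraries lay far above WT and neither CKO library lay below WT. Whether the deleted part is among the counted exons is not told by the labels, and CKO is used below as the name of a label. The defining CD4 T cell genes were present in every library (Cd4 between 53.8 and 103 FPKM, Cd8a at or below 0.130 FPKM). Cd4 was lowest in CKO replicate 1. The 9 CD4 T cell markers summed to 1216 FPKM in that library, against 1465 to 2437 in the other 5 libraries. CKO replicate 1 stood apart: its 9 neutrophil markers summed to 8059 FPKM against 40.4 to 195 in the other 5 libraries, its 7 plasma cell markers to 962 against 95.1 to 255, and its 8 monocyte and macrophage markers to 258 against 12.0 to 41.8. No neutrophil marker was at 0 in any library. In sorted bulk cells, fewer cells of a type and less RNA per cell cannot be told apart.

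Ribosomal protein genes took 16.2% of the reads on genes in WT replicate 1 and 8.03% in WT replicate 2. The corresponding shares were 10.9% and 7.13% in CKO, and 11.3% and 7.10% in BTg. The group means were 12.1% ± 5.78 in WT, 9.02% ± 2.67 in CKO and 9.22% ± 2.99 in BTg (SD, n = 2 each), so the groups overlapped and the 2 libraries of a group lay farther apart than the group means. The libraries numbered 1 averaged 12.8% ± 2.94 and those numbered 2 averaged 7.42% ± 0.527 (SD, n = 3 each), and these ranges did not overlap. Within each genotype, the number 1 library held 2.02 times the share of number 2 in WT, 1.53 times in CKO and 1.596 times in BTg. With immunoglobulin genes and the neutrophil and erythroid markers left out of the total, CKO replicate 1 had 11.9% and BTg replicate 1 11.4%. The order of these 2 libraries was then reversed. The other shares were 16.3% and 8.14% in WT, 7.27% in CKO replicate 2 and 7.16% in BTg replicate 2. A comparison of 2 libraries with 2 cannot give an exact permutation p below 0.333, nor one of 3 with 3 below 0.1. For WT replicate 1 the 95% Wilson interval, which covers counting error only, ran from 16.183% to 16.217%, and the intervals of the other libraries were narrower.

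**Figure D1:**
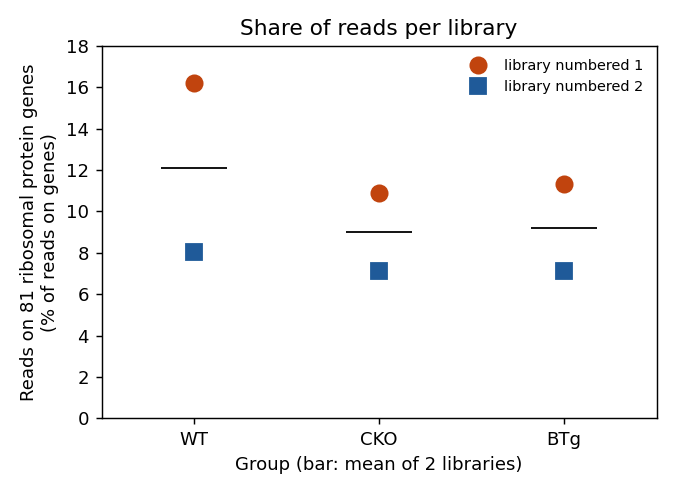
Share of reads on the 81 ribosomal protein genes, in percent of the reads on genes, for each library (circles, number 1; squares, number 2) by group, with a bar at the mean of 2 libraries. The number 1 libraries sit between 10.9% and 16.2%, and the number 2 libraries between 7.10% and 8.03%.

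Both subunits took part in this difference. Large subunit genes took 8.69% of reads in WT replicate 1 and 4.51% in WT replicate 2, then 6.22% and 4.02% in CKO and 6.15% and 3.96% in BTg. Small subunit genes took 7.51% and 3.52% in WT, 4.68% and 3.11% in CKO, and 5.18% and 3.15% in BTg. The ratio of large to small subunit reads stayed between 1.16 and 1.33 over the 6 libraries. Rows named as pseudogenes of ribosomal proteins, 182 in all, followed the same order at a much lower level, apart from CKO replicate 2 and BTg replicate 2, with 0.174% and 0.0951% in WT, 0.124% and 0.0828% in CKO and 0.127% and 0.0856% in BTg.

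The deposited FPKM divide reads by the span of a gene's transcripts in the genome, introns included, so levels between genes are compared here as RPKM computed on exon length (exon RPKM). Rplp1, one of the acidic proteins of the stalk that recruits elongation factors, had the highest level, with 10754 and 4542 exon RPKM in the WT libraries, 6473 and 3809 in CKO and 6873 and 3908 in BTg. Rps3a1, a small subunit protein, came next with 4585 and 1804 exon RPKM in the WT libraries, 2727 and 1668 in CKO and 3048 and 1634 in BTg. The third was Rpl36, a large subunit protein, with 3099.7 and 1902 exon RPKM in the WT libraries, 2510.0 and 1715 in CKO and 2481 and 1688 in BTg. All 3 were higher in each number 1 library than in its number 2 partner.

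At the other end stood the paralogues with tissue-restricted expression. Rpl3l, known from heart and skeletal muscle, was listed with 1 and 5 reads in the WT libraries, 15 and 8 in CKO and 7 and 6 in BTg. Rpl39l, known from male germ cells, was listed with 13 and 4 reads in the WT libraries, 6 and 1 in CKO and 9 and 5 in BTg. These 2 genes did not reach 1 FPKM in 2 libraries, so that 79 of the 81 genes entered the tests. Rpl24 was the lowest of the 79 genes tested, with 6.88 and 7.83 exon RPKM in the WT libraries, 9.11 and 5.80 in CKO and 6.68 and 7.66 in BTg. Its low level is uncertain, since it shares exon bases with the annotated gene Gm28037, and 81.7% of the 50-base windows of its mRNA also occur in transcripts of other genes.

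Shared sequence touched nearly all of these genes. In 78 of the 81, some 50-base windows of the mRNA occurred in other genes' transcripts, with a median of 51.3% of windows and a range from 0 to 98.6%. The highest share was that of Rps27. The sources used here do not tell how reads with several possible origins were counted. Exon bases were shared with another annotated gene in 21 of the 81, and 29 had a small nucleolar RNA gene inside their span.

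The difference between library numbers was fitted across all 10798 genes tested, with group and number in the model (limma on log2(FPKM + 1), which understates the change of low genes). The fitted difference, number 1 minus number 2, was above 0 in 78 of the 79 ribosomal protein genes and had a median of 0.77 on the log2 scale (quartiles 0.56 and 0.96). Over all genes tested, 31.4% were above 0 and 68.6% below, and the median was -0.19. After limma's Benjamini-Hochberg adjustment, 0 of the 79 passed 0.05, as did 0.0% of all genes, and the smallest adjusted p of a ribosomal protein gene was 0.112. At an unadjusted p under 0.05 limma had 64 of the 79 higher and 1 lower, beside 7.46% of all genes higher and 23.2% lower, and limma voom on the recovered reads had 62 of 79 at that level and 0 after adjustment. The 3 number 1 libraries lay above the 3 number 2 libraries in 66 of the 79 genes, against 9.71% of all genes. The difference was thus widespread in these libraries, but no single gene passed the adjusted test, and the labels do not tell what the numbers stand for.

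Within the genotypes, the median difference of the 79 genes was 1.02 in WT, 0.66 in CKO and 0.63 in BTg, equal to 2.03-fold, 1.58-fold and 1.55-fold. Number 1 exceeded number 2 in all 3 genotypes in 74 of the 79 genes (93.7%), and in 14.9% of all genes tested. The other 5 were Rpl13a, Rpl24, Rpl28, Rplp2 and Rps10, named here after their values were seen. The large subunit genes had a median difference of 0.71 (n = 48) and the small subunit genes one of 0.87 (n = 31). WT replicate 1 was the highest of the 6 libraries for 68 of the 79 genes, against 10.2% of all genes tested. CKO replicate 1 was the highest for 8 (23.0% of all genes), BTg replicate 1 for 2, Rplp2 and Rps2 (8.94% of all genes), and BTg replicate 2 for 1, Rps10 (28.8% of all genes). Under quantile normalization, which forces the libraries to one distribution, the median was 0.26 with 58 of the 79 genes higher. Under median centring it was 0.95.

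**Figure D2:**
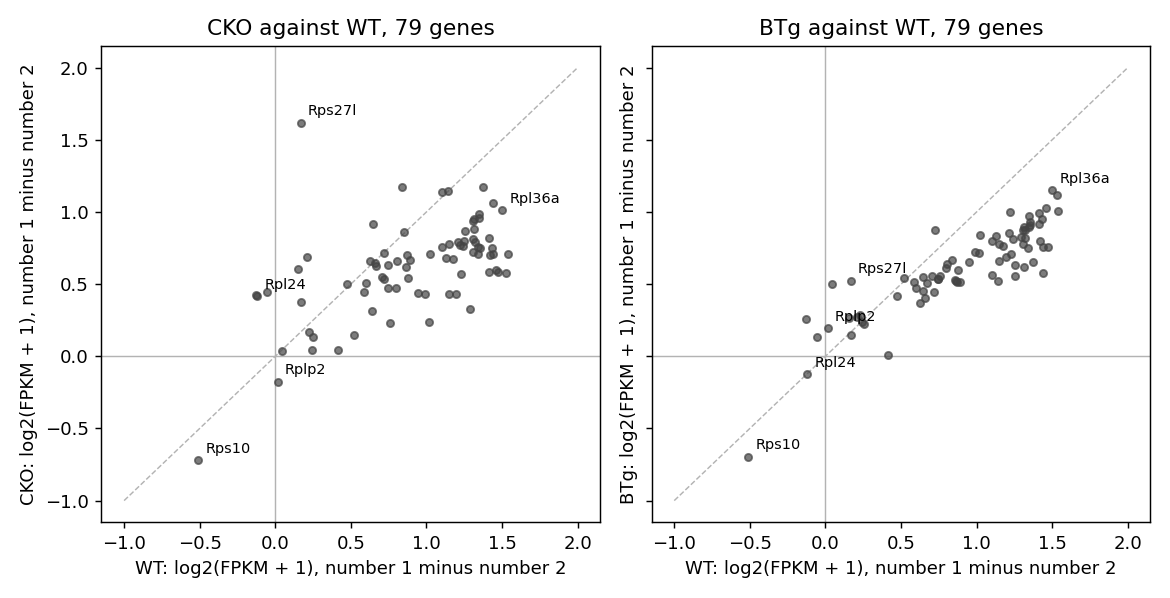
Each point is 1 of the 79 tested ribosomal protein genes. The horizontal axis gives its log2(FPKM + 1) difference, number 1 minus number 2, in WT, the vertical axis the same difference in CKO (left) or BTg (right), and the dashed line marks equal differences. Most points lie in the upper right, below the dashed line, Rps10 lies below 0 in all 3 genotypes, and Rps27l lies far above the dashed line in CKO.

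Rpl36a, a large subunit protein encoded on the X chromosome (chrX:134585654-134588062, plus strand), had the largest fitted difference. Its values were 476 and 168 FPKM in the WT libraries, 306 and 151 in CKO and 282 and 127 in BTg. Each number 1 library exceeded every number 2 library, and the difference was 1.22 (SE 0.18, limma adjusted p = 0.112). Rpl26, a large subunit protein known for binding Trp53 mRNA (chr11:68901583-68906989, plus strand), was listed at 551 and 216 FPKM in the WT libraries, 368 and 189 in CKO and 383 and 195 in BTg. Its libraries separated by number in the same way, with a difference of 1.09 (SE 0.17, limma adjusted p = 0.112). Rpl30, a large subunit protein (chr15:34440505-34443640, minus strand), was listed at 977 and 336 FPKM in the WT libraries, 503 and 308 in CKO and 659.9 and 328 in BTg, a difference of 1.08 (SE 0.22, limma adjusted p = 0.112).

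Rps10, a small subunit protein mutated in some patients with Diamond-Blackfan anaemia, was the single gene with a negative difference (chr17:27630418-27636669, minus strand). It was listed at 3.77 and 5.78 FPKM in the WT libraries, 2.54 and 4.83 in CKO and 3.25 and 5.88 in BTg, so that each number 2 library exceeded every number 1 library. The difference was -0.64 (SE 0.11, limma adjusted p = 0.112). The level of Rps10 was low for the family, with 277 and 365 reads in the WT libraries, 187 and 354 in CKO and 205 and 364 in BTg. Its exons share bases with the readthrough gene RPS10-NUDT3 and with Gm15420, so its level is uncertain.

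The smallest positive differences belonged to a stalk protein and to Rpl24. Rplp2, the partner of Rplp1 in the stalk, was listed at 433 and 428 FPKM in the WT libraries, 329 and 372 in CKO and 457 and 399.9 in BTg, with a difference of 0.011 (SE 0.16, limma adjusted p = 0.968). Its libraries overlapped between numbers, and the sign turned to -0.080 without either BTg library, to -0.47 under quantile normalization and to -0.22 with the coding-length trend removed. Rpl24, which bridges the subunits, was listed at 1.72 and 1.96 FPKM in the WT libraries, 2.28 and 1.45 in CKO and 1.67 and 1.91 in BTg, with a difference of 0.06 (SE 0.16, limma adjusted p = 0.820), which turned to -0.12 without either CKO library and to -0.075 with the coding-length trend removed. Other genes with an unadjusted p of 0.05 or above included Rpl7a, Rpl7l1, Rpl8, Rpl13a, Rpl14, Rpl28, Rpl29, Rps2, Rps9, Rps13 and Rps27l, named here after their values were seen.

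Ribosomal protein mRNAs are short, and coding length moved with the difference between library numbers. The median coding length was 453 bases over the 81 genes (75 to 1257) and 1311 bases over 8346 other protein-coding genes tested. Across genes, the difference correlated with coding length at a Spearman rho of -0.47 over the 79 ribosomal protein genes and of -0.52 over the others. These are descriptions across genes that share the same 6 libraries, and genes are not independent replicates. Genes other than ribosomal ones with a coding length of up to 300 bases had a median difference of 0.42 (n = 199), and those above 3000 bases one of -0.41 (n = 1056). The ribosomal protein genes ran from 0.94 at up to 300 bases (n = 10), through 0.89 from 300 to 450 bases (n = 28), to 0.69 from 450 to 600 bases (n = 19), 0.58 from 600 to 900 bases (n = 19) and 0.51 above 900 bases (n = 3). In each of these classes their median was above that of the other genes, and with the trend over coding length removed the median difference of the 79 was 0.62, with 75 of 79 above 0. The part of RNA quality or library preparation in this difference was not tested.

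**Figure D3:**
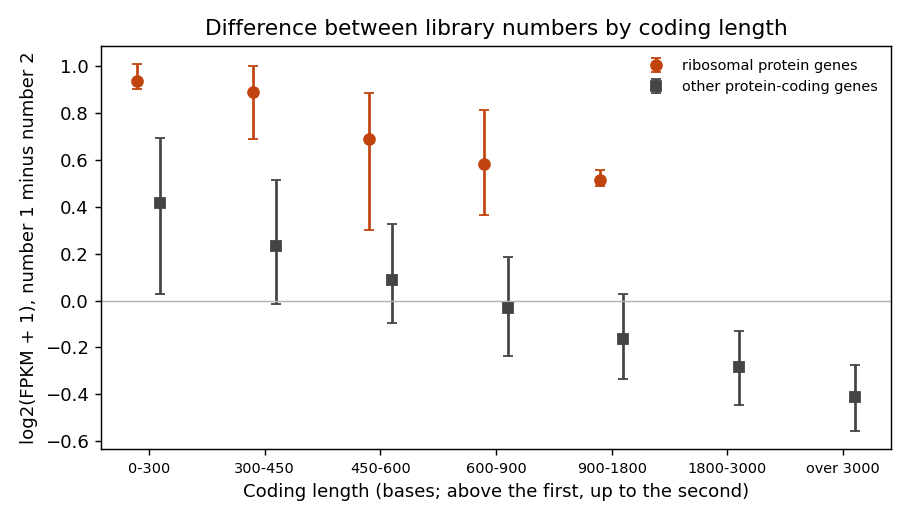
Median and quartiles of the fitted log2(FPKM + 1) difference, number 1 minus number 2, by coding length in bases, for ribosomal protein genes (circles) and other protein-coding genes (squares). Both series fall with length, and the circles lie above the squares in each of the 5 classes that hold ribosomal protein genes, from 0.94 against 0.42 in the shortest class.

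Other measures were set beside the library number, and mitochondrial reads and erythroid markers moved with it in each genotype. Reads on mitochondrially encoded genes made up 3.20% and 1.26% of reads in WT replicates 1 and 2, 1.93% and 1.23% in CKO, and 2.31% and 1.12% in BTg, so number 1 was higher in each genotype. The 8 erythroid markers summed to 87.7 and 1081 FPKM in WT, 392 and 661 in CKO, and 103 and 171 in BTg, lower in number 1 each time. The 13 markers of dividing cells summed to 86.4 and 340 FPKM in WT, 476 and 299 in CKO, and 96.1 and 133 in BTg, lower in number 1 in WT and BTg and higher in CKO. The part of other cells or of dividing cells in the ribosomal protein difference was not tested.

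The start-site motifs were set beside this difference as a description, with no test. Genes with the pyrimidine run had a median difference of 0.73 (n = 46) and those without it 0.81 (n = 13). With a C at the start followed by 4 pyrimidines the median was 0.87 (n = 13), and without this 0.75 (n = 46). Genes with CCGGAAG in the window had a median of 0.89 (n = 24) and those without it 0.67 (n = 35). GC content of the mRNA had a Spearman rho of -0.25 with the difference over the 79 genes.

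CKO against WT compares the libraries labelled Blimp1 knockout with the controls. The fitted difference, CKO minus WT, was below 0 in 75 of the 79 genes and above 0 in 4 (in 10 under quantile normalization), with a median of -0.35 on the log2 scale (quartiles -0.45 and -0.22), beside -0.03 over all genes, where 54.6% were below 0. By limma with Benjamini-Hochberg adjustment 0 of 79 passed 0.05, as did 0.0% of all genes. At an unadjusted p under 0.05 limma had 0 of 79, against 4.2% of all genes (3.11% higher and 1.09% lower), and limma voom had 0. In 7 of the 79 both CKO libraries lay below both WT libraries, against 8.96% of all genes, and in 0 both lay above, against 11.5% of all genes. The 7 included Rpl8, Rpl29, Rplp2, Rps2, Rps9 and Rps13. Without WT replicate 1, which leaves a number 2 library alone on the WT side, the median was 0.15 with 65 of 79 above 0, and without WT replicate 2 it was -0.83. It was -0.64 without CKO replicate 1 and -0.013 without CKO replicate 2. With all libraries and the coding-length trend removed it was -0.46.

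Libraries with the same number were also compared in pairs, although the labels do not say what a shared number marks. The difference between numbers had a median of 1.02 in WT and 0.66 in CKO, so such a pair need not remove it. The median of CKO minus WT was -0.53 between the number 1 libraries, with 71 of 79 genes lower in CKO. It was -0.17 between the number 2 libraries, with 78 of 79 lower (Rpl27 was higher). Each is a difference of 2 libraries with no replicate check, beside medians over all genes of -0.07 and -0.0084. Of all genes tested, 43.0% and 47.7% were higher in CKO. The number 2 pair showed a small shift, 0.888-fold at the median (log2 quartiles -0.21 and -0.14). In that pair the neutrophil markers summed to 160 FPKM in WT and 195 in CKO, and the plasma cell markers to 166 and 255. The monocyte and macrophage markers summed to 31.1 and 41.8 FPKM, and the erythroid markers to 1081 and 661. The part of other cells in this shift was not tested.

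Rps27, a small subunit protein (chr3:90212522-90213651, minus strand), had the most negative difference. It was listed at 3944 and 1421 FPKM in the WT libraries, 1739.8 and 1161 in CKO and 2394 and 1413 in BTg. WT replicate 1 was the highest library by far, the other 5 overlapped between groups, and the difference of -0.74 (SE 0.60, limma adjusted p = 1.0) was 0.00032 without that library. Rpl12, part of the base of the stalk, was listed at 2220.5 and 907 FPKM in the WT libraries, 956 and 764 in CKO and 1434 and 807 in BTg, a difference of -0.73 (SE 0.55, limma adjusted p = 1.0), which was -0.086 without WT replicate 1. Rps14, a small subunit protein, was listed at 2010.3 and 696 FPKM in the WT libraries, 935 and 628 in CKO and 1419 and 654 in BTg, a difference of -0.63 (SE 0.65, limma adjusted p = 1.0), which was 0.14 without WT replicate 1.

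The 3 most positive differences came from CKO replicate 1. Rps27l, the p53-responsive paralogue of Rps27 (chr9:66946086-66949516, plus strand), was listed at 27.7 and 24.6 FPKM in the WT libraries, 65.2 and 20.6 in CKO and 17.5 and 11.9 in BTg. Only CKO replicate 1 stood above the WT libraries, and the difference of 0.48 (SE 0.55, limma adjusted p = 1.0) was -0.33 without it. Rpl7l1, a paralogue of Rpl7, was listed at 24.2 and 20.8 FPKM in the WT libraries, 33.9 and 20.7 in CKO and 21.9 and 17.9 in BTg, a difference of 0.23 (SE 0.32, limma adjusted p = 1.0), which was -0.11 without that library. Rpl28, a large subunit protein, was listed at 794 and 826 FPKM in the WT libraries, 1035 and 762 in CKO and 707 and 645 in BTg, a difference of 0.13 (SE 0.34, limma adjusted p = 1.0), which was -0.089 without it. CKO replicate 1 is the library with the neutrophil, monocyte and plasma cell markers, and their part in these values was not tested.

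**Figure D4:**
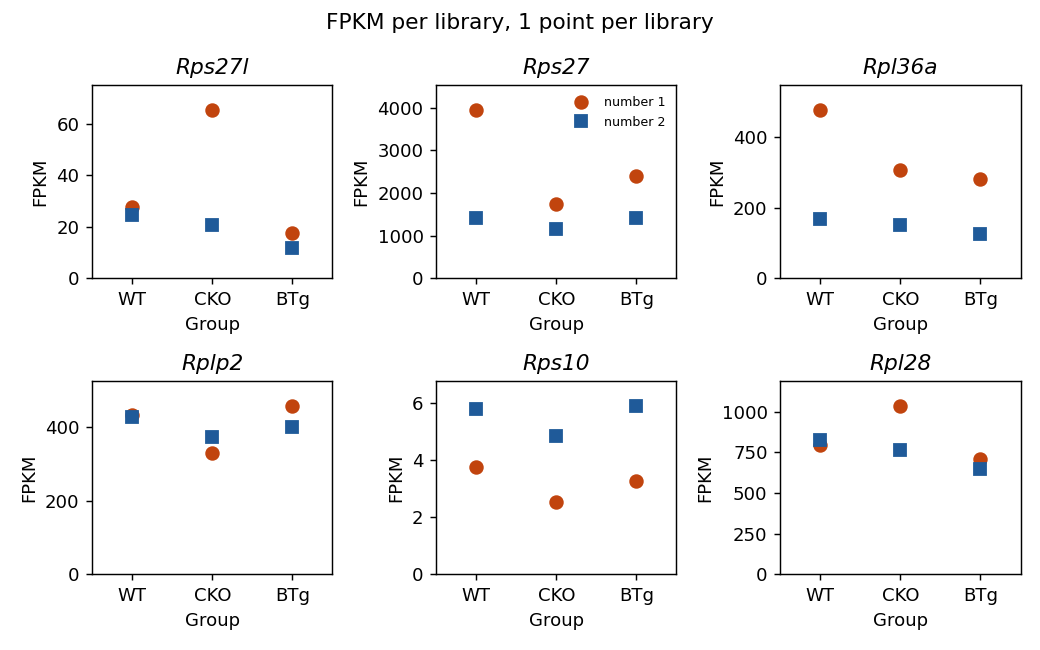
FPKM of 6 ribosomal protein genes in each library, by group, on axes that start at 0 (circles, number 1; squares, number 2). Rps27l peaks in CKO replicate 1 and is lowest in BTg, Rps27 and Rpl36a separate by number with WT replicate 1 highest, Rps10 separates in the opposite direction, and Rplp2 and Rpl28 overlap between numbers.

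BTg against WT compares the libraries with the raised Prdm1 level with the controls. The fitted difference, BTg minus WT, was below 0 in 79 of the 79 genes, whereas 12 were above 0 under quantile normalization and 5 with the coding-length trend removed. Its median was -0.35 (quartiles -0.43 and -0.27), beside 0.02 over all genes, where 45.5% were below 0. By limma with Benjamini-Hochberg adjustment 0 of 79 passed 0.05, against 0.0185% of all genes. At an unadjusted p under 0.05 limma had 0 of 79, against 1.62% of all genes (0.769% higher and 0.852% lower), and limma voom had 0. Both BTg libraries lay below both WT libraries in 5 of the 79 (10.4% of all genes) and above them in 0 (14.7% of all genes). Without WT replicate 1, which again leaves a number 2 library alone on the WT side, the median was 0.15 with 62 of 79 above 0. It was -0.89 without WT replicate 2, -0.71 without BTg replicate 1 and -0.015 without BTg replicate 2. Under quantile normalization it was -0.13, and with the coding-length trend removed it was -0.25.

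Between libraries of the same number the medians were -0.51 (number 1, 77 of 79 lower in BTg) and -0.17 (number 2, 78 of 79 lower, Rps10 higher). Over all genes the medians were 0.07 and -0.00029, with 61.4% and 49.7% higher in BTg. BTg and CKO share the WT libraries in these contrasts, so their like medians are not separate evidence. The difference correlated with coding length across the 79 genes at a Spearman rho of 0.51, and across the other protein-coding genes at 0.27.

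The 5 genes whose BTg libraries both lay below WT were Rpl7a, Rpl13a, Rpl28, Rpl29 and Rps27l, named here after their values were seen. Rps27l had the most negative difference of -0.81 (SE 0.55, limma adjusted p = 1.0), from the values above. The next was Rpl36a at -0.58 (SE 0.69, limma adjusted p = 1.0), which was 0.17 without WT replicate 1. Rps29, a small subunit protein with a zinc finger, was listed at 2028 and 748 FPKM in the WT libraries, 1225 and 585 in CKO and 1015 and 680.3 in BTg, a difference of -0.57 (SE 0.63, limma adjusted p = 1.0), which was 0.15 without WT replicate 1. WT replicate 1 held the highest value of both genes, and the other libraries overlapped between BTg and WT.

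Among the differences nearest 0 were those of Rplp2 at -0.0090 (SE 0.31) and Rpl24 at -0.023 (SE 0.23), each with a limma adjusted p of 1.0. From the values above, the BTg libraries of both genes overlapped those of WT. The signs turned when single libraries were left out, Rplp2 without BTg replicate 2 (0.088), and Rpl24 without WT replicate 2 (0.037) or BTg replicate 1 (0.040).

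BTg against CKO showed no common direction on the deposited scale. The fitted difference, BTg minus CKO, was above 0 in 39 of the 79 genes (56.1% of all genes) and below 0 in 40 (43.9% of all genes), with a median of -0.0018 (quartiles -0.11 and 0.11), beside 0.06 over all genes. By limma with Benjamini-Hochberg adjustment 0 of 79 passed 0.05 (0.0185% of all genes), and at an unadjusted p under 0.05 limma had 0 of 79 (8.79% of all genes, 2.78% higher and 6.01% lower) and limma voom had 1, Rps27l. The groups did not overlap for 3 genes higher in BTg (Rpl29 and Rplp2 among them, beside 17.8% of all genes) and 3 lower (Rpl13a, Rpl28 and Rps27l, beside 21.8% of all genes). Under quantile normalization 62 of 79 were above 0, and with the coding-length trend removed 65 were. The median was 0.31 without CKO replicate 1, -0.34 without CKO replicate 2, -0.35 without BTg replicate 1 and 0.35 without BTg replicate 2.

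**Figure D5:**
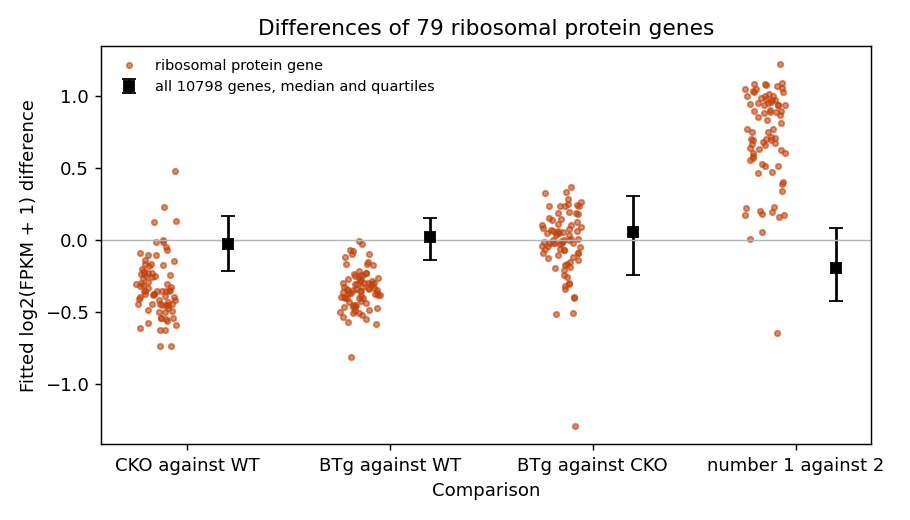
Fitted log2(FPKM + 1) differences of the 79 tested ribosomal protein genes (points) in the 4 comparisons, beside the median and quartiles of all 10798 genes tested (squares with bars). The points lie mostly below 0 for CKO and BTg against WT (medians -0.35 and -0.35), around 0 for BTg against CKO, and above 0 for number 1 against 2 (median 0.77).

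Rps27l again had the most negative value, -1.29 (SE 0.55, limma adjusted p = 0.584), and both BTg libraries lay below both CKO libraries. Its difference was -0.48 without CKO replicate 1 and -2.10 without CKO replicate 2. It was followed by Rps12 at -0.51 (SE 0.48, limma adjusted p = 0.753) and by Rpl13a at -0.50 (SE 0.28, limma adjusted p = 0.650). Rps12, a small subunit protein of the beak, was listed at 949 and 605 FPKM in the WT libraries, 1034 and 547 in CKO and 638 and 436 in BTg. CKO replicate 1 held its highest value, CKO replicate 2 lay between the BTg libraries, and the difference was -0.052 without CKO replicate 1. Rpl13a, which is known outside the ribosome as a translational silencer of inflammatory genes, was listed at 22.3 and 24.4 FPKM in the WT libraries, 29.7 and 21.9 in CKO and 19.5 and 16.1 in BTg. Both BTg values of Rpl13a lay below those of the other 4 libraries, although its exons share bases with Gm45713.

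At the positive end were Rps27 at 0.37 (SE 0.60), Rpl12 at 0.33 (SE 0.55) and Rps14 at 0.33 (SE 0.65), with limma adjusted p of 0.847, 0.849 and 0.872. These are the genes with the most negative values in CKO against WT, a contrast that uses the same CKO libraries. Without BTg replicate 1 the 3 values were -0.0085, -0.082 and -0.23.

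The paralogue pairs allow a comparison within a library. Rpl22l1, which shares the place of Rpl22 in the ribosome, stood at 35.7% and 35.5% of the exon RPKM of Rpl22 in WT, 35.1% and 35.6% in CKO and 33.9% and 30.5% in BTg. This ratio was close in 5 libraries and lowest in BTg replicate 2. Rps27l stood at 3.01% and 7.40% of Rps27 in WT, 16.0% and 7.56% in CKO and 3.13% and 3.60% in BTg. Here CKO replicate 1 was high, and both BTg libraries and WT replicate 1 were low, so the groups BTg and WT overlapped in this ratio. Its WT values differed mostly through Rps27, listed at 3944 and 1421 FPKM, with Rps27l at 27.7 and 24.6. The FPKM of Rps27l itself did not overlap between WT and BTg (17.5 and 11.9). Rpl7l1 stood at 3.06% and 6.50% of Rpl7 in WT, 6.44% and 6.93% in CKO and 4.07% and 6.12% in BTg.

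Ribosomal components outside the naming pattern, such as Rpsa, Fau and Rack1, were also higher in number 1. Their median difference between library numbers was 0.57, with 5 of 5 above 0 (31.4% of all genes). Their medians were -0.23 in CKO and -0.18 in BTg against WT. Rpsa, the laminin-binding small subunit component, was listed at 1975 and 1018 FPKM in the WT libraries, 1583 and 918 in CKO and 1331 and 842 in BTg. Rack1, a scaffold protein of the small subunit, was listed at 591 and 369 FPKM in the WT libraries, 441 and 338 in CKO and 507 and 321 in BTg. In both genes each number 1 library exceeded every number 2 library. None of the 5 passed limma's adjusted test in any of the 4 comparisons.

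The 16 translation factors and other genes with a known TOP tract had a smaller median difference between numbers, 0.14. Of these, 11 of 16 were above 0 (31.4% of all genes) and 0 passed the adjusted test. At an unadjusted limma p under 0.05, 7 were higher and 0 lower, beside 7.46% and 23.2% of all genes. The median over all genes tested was -0.19. Eef1a1, the factor that delivers aminoacyl-tRNA, was listed at 8563 and 7480.5 FPKM in the WT libraries, 7052 and 6795 in CKO and 8684 and 6935 in BTg. Eef2, the translocation factor, was listed at 2874 and 3469 FPKM in the WT libraries, 2659.5 and 3203 in CKO and 3317 and 3067 in BTg, with number 2 above number 1 in WT and CKO. Tpt1, a short TOP mRNA, was listed at 4229 and 1622 FPKM in the WT libraries, 1536 and 1405 in CKO and 3007 and 1557 in BTg, with WT replicate 1 and then BTg replicate 1 highest, as for Rps27. The members of this list thus differed among themselves.

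Other genes of the pathway had lower medians between numbers than the 79 ribosomal protein genes (0.77). The 26 initiation factors had a median difference of 0.10 (16 of 26 above 0). The 45 ribosome biogenesis genes had one of -0.17 (17 of 45 above 0). Over all genes tested the median was -0.19, with 31.4% above 0. The 15 regulators tested, which include mTOR pathway genes and Myc, had a median of -0.43. Of these regulators, 13 of 15 were below 0 and 9 of these had an unadjusted limma p under 0.05. Over all genes tested, 68.6% were below 0 and 23.2% were lower at that level. Myc, which drives ribosome production, was listed at 14.2 and 23.7 FPKM in the WT libraries, 16.1 and 21.5 in CKO and 13.4 and 15.4 in BTg. The 73 mitochondrial ribosomal protein genes tested had a median of 0.23, with 57 of 73 above 0 and 23 of these at an unadjusted limma p under 0.05. The shares over all genes tested were 31.4% above 0 and 7.46% higher at that level. These lists were not matched for coding length. Over protein-coding genes other than the ribosomal ones, the median fell from 0.42 at up to 300 bases to -0.41 above 3000 bases. The part of coding length in the medians of the lists was not tested. In these 4 lists, 0 genes passed limma's adjusted test in any comparison.

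In CKO against WT, 3 of these lists had medians above 0. Mitochondrial ribosomal protein genes had a median of 0.10 in CKO against WT (54 of 73 above 0, beside 45.4% of all genes). In BTg against WT their median was -0.13 (16 of 73 above 0, beside 54.5% of all genes). Initiation factors had medians of 0.11 and -0.08 in these comparisons, and biogenesis genes 0.07 and -0.09. Each of these 3 lists took its largest share of reads in CKO replicate 1, the library with the neutrophil markers. WT and CKO shares were 0.317% and 0.300% against 0.402% and 0.280% for mitochondrial ribosomal protein genes. They were 0.682% and 0.782% against 0.863% and 0.731% for initiation factors, and 0.556% and 0.614% against 0.711% and 0.553% for biogenesis genes. The part of other cells in these medians was not tested. The 7 small nucleolar RNA host genes tested had medians of -0.19 in CKO against WT and -0.34 in BTg against WT. Gas5, a host gene with a TOP tract, was listed at 77.4 and 66.0 FPKM in the WT libraries, 68.4 and 58.5 in CKO and 54.5 and 52.0 in BTg, and both BTg libraries lay below the other 4.

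Naive T cell genes were set beside them because resting and activated T cells differ in ribosome content. The 12 tested had a median of -0.79 in CKO against WT, with 12 below 0 (54.6% of all genes). In BTg against WT the median was -0.29, but 6 were above 0 and 6 below. It was 0.55 in BTg against CKO, with 7 above 0 and 5 below, and -0.20 between numbers. One of them, Igfbp4, passed limma's adjusted test in BTg against WT and in BTg against CKO, but not with the replicate block, under which 0 of the 10798 genes passed in either. Summed, the 13 naive genes were listed at 498 and 413 FPKM in WT, 195 and 374 in CKO, and 393 and 311 in BTg.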

How the data were processed

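Per the labels' protocols, total RNA was taken with TRIzol, and the NEBNext Ultra kit was used for the libraries. Trimmomatic 0.38, HISAT2 2.1.0, featureCounts 1.6.0 and the build GRCm38 are named in the submitters' processing notes. The authors deposited 1 table of FPKM with 28914 rows and 6 library columns. Multiplying these FPKM by the median genomic span of each gene's annotated transcripts gave whole reads (within 0.01) for 100.0% of values in every library, against 21.2% to 22.9% with the exon length. The strand setting and the handling of multiply mapped reads are not named in the sources used here.

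From the deposited FPKM, log2(FPKM + 1) was fitted over all 6 libraries with limma 3.58.1 in R 4.3.3 (lmFit, eBayes with a trend), keeping the 10798 genes that reached 1 FPKM in 2 or more libraries. Benjamini-Hochberg adjustment ran over all of them at 0.05. The genotype comparisons had 3 residual degrees of freedom, and the comparison of library numbers, fitted with group and number, had 2. The code was tested on simulated data. Same-numbered libraries deviated together from their group means across the 10798 genes (r = 0.173 for WT and CKO, 0.469 for WT and BTg, 0.456 for CKO and BTg), a pairing seen in the data only, since the labels do not say what a number marks. The genotype fits whose errors and p-values are given had no term for the number, and the fit with it is an alternative. Spans, exons, coding lengths and overlaps came from GENCODE M21, and start sites from RefSeq.

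For each comparison, the genes with the 3 highest and 3 lowest differences are named, together with those of the 3 highest and 3 lowest levels, the paralogues, and a few genes of the lists. Some genes that this takes in are not reported here by name. Alternatives covered the pseudocount, filter, scaling, length, test, replicate block and leaving out each library. The genes and the lists were chosen with earlier results of these data known.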

Additional observations from a re-analysis of the deposited data

How the results depend on the processing

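The number of ribosomal protein genes past limma's adjusted threshold was 0 in each comparison under each alternative run. With the replicate block the 3 genotype comparisons kept their medians, called 0 genes, and each had 1 gene at an unadjusted p under 0.05, Rps27 (CKO against WT, beside 6.57% of all genes), Rps12 (BTg against WT, 3.45%) and Rps27l (BTg against CKO, 15.7%). Over all genes, the 2 that passed the adjusted test in each of the BTg comparisons, Igfbp4 and Prdm1, did not pass with the block, and the block changed no call of a ribosomal protein gene. The median difference between library numbers was 0.26 under quantile normalization and 0.95 under median centring, and 0.67 to 0.83 with single libraries left out. The count of genes at an unadjusted p under 0.05 in that comparison, 65, was 14 under quantile normalization, 47 without the filter, and 37 without either BTg library. The cause of these changes was not tested. Removing a trend over coding length was added after seeing the data.

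Leaving out single libraries turned several signs. The medians ranged from -0.83 to 0.15 (CKO against WT), -0.89 to 0.15 (BTg against WT) and -0.35 to 0.35 (BTg against CKO). In CKO against WT the ranges were -1.47 to 0.00032 for Rps27, -1.39 to 0.14 for Rps14, -0.33 to 1.29 for Rps27l, -0.11 to 0.57 for Rpl7l1 and -0.089 to 0.35 for Rpl28. In BTg against WT they were -1.33 to 0.17 for Rpl36a, -1.29 to 0.15 for Rps29, -0.086 to 0.040 for Rpl24 and -0.11 to 0.088 for Rplp2. In BTg against CKO they were -0.0085 to 0.75 for Rps27, -0.082 to 0.75 for Rpl12 and -0.23 to 0.89 for Rps14. Between numbers they were -0.12 to 0.15 for Rpl24 and -0.080 to 0.10 for Rplp2.

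Scaling turned others. Under quantile normalization BTg against WT was 0.099 for Rplp2, the BTg against CKO median was 0.17, and Rplp2 between numbers was -0.47. The BTg against CKO median was 0.0085 under median centring and 0.0015 with ribosomal protein reads left out of the total. With the coding-length trend removed it was 0.24, BTg against WT was 0.13 for Rplp2 and 0.066 for Rpl24, and between numbers Rplp2 was -0.22 and Rpl24 -0.075. The cause was not tested. With 2 libraries a group, precision is limited by the number of libraries, and for genes with few reads, such as Rps10, also by depth.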
